A study of Mus musculus with 24 samples.

Results

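The transcription factors Hnf4a, Maf, Esrra, Esrrg, Pax2, Pax8, Tfap2b and Lhx1, which mark or build nephron identity, were followed in bulk RNA sequencing of mouse kidney. They were chosen by name, as 8 genes of the 35460 to which the deposited transcripts could be assigned, and each was measured as the estimated reads summed over its Ensembl transcripts. All 8 passed the filter on low values in both experiments, with 153 to 22474 estimated reads per gene and library. In the knockout experiment, 6 libraries labelled ENPP1 knockout came from mice with floxed Enpp1 (ENPP1 fl/fl), CAG-ERCre and tamoxifen-induced recombination, kept for 14 days on an adenine diet. Another 6 libraries came from wild-type (CAG-ERCre-) mice on the same diet, and 4 from a CHOW diet control group. In the antibody experiment, all mice received the adenine diet for 14 days, with intraperitoneal injections at 50 mg/kg, 2 per week, of an antibody raised against the human ENPP1 protein in 4 mice and of control IgG in 4 mice. The adenine diet injures the renal tubules, because an oxidised product of adenine precipitates in them; ENPP1 is a cell surface enzyme that cuts ATP outside the cell, which releases AMP and pyrophosphate. The CAG promoter is active in most tissues, so it does not confine recombination to the kidney, and the Cre transgene coincided with the knockout label. The sources used here do not give the genotype of the chow group, the strain, sex and age of the mice, whether wild-type and chow mice received tamoxifen, or whether the human ENPP1 gene was present in the mice given antibody or IgG. Libraries were taken to be 1 mouse each; if they were not, p-values measure only the spread between libraries.

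The nephron forms from progenitors in which PAX2, PAX8 and LHX1 drive the transition from mesenchyme to epithelium, and each segment is then held in its mature state by its own set of factors. HNF4A is the nuclear receptor that drives the mature programme of the proximal tubule, where MAF, a bZIP factor that also acts in macrophages and T cells, is expressed as well. ESRRA and ESRRG are orphan nuclear receptors that, with the coactivator PGC-1alpha, switch on mitochondrial and energy genes, and TFAP2B acts in the distal nephron. PAX2 is mostly switched off when nephrons mature and is switched on again in injured tubules, whereas PAX8 stays on along the tubule.

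Hnf4a has separate annotated starts, an upstream one known as P2, used in the pancreas and gut, and a downstream one known as P1, used in liver and kidney. Both promoter windows are shown because they carry the annotated starts between which the Hnf4a reads were divided. Each runs from 250 bases before to 50 bases after the start in RefSeq (build GRCm38.p6, plus strand), and the capital letter marks the annotated start base.
Hnf4a upstream window, chr2:163506607-163506906: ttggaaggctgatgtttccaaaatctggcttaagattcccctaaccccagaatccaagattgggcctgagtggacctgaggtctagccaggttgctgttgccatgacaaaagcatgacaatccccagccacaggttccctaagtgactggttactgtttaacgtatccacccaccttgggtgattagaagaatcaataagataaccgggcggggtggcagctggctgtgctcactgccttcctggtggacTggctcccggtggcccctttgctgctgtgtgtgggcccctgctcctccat
Hnf4a downstream window, chr2:163546905-163547204: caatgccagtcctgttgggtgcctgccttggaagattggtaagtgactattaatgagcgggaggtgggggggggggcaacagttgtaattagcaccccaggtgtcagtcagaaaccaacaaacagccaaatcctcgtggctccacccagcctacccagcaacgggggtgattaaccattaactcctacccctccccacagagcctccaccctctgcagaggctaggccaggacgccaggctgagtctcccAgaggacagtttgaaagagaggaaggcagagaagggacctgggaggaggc
A motif like that of the estrogen-related receptors (TNAAGGTCA, with N any base, in 1.28% of the 32851 RefSeq windows of this length) and one like that of HNF4 (CAAAGTCCA, in 0.475%), both searched on both strands, were in none of the 13 windows of the transcription factors. Maf was not among the genes with a window. The letters were chosen with these sequences in view, and the lack of a match says only that these letters are not in these windows.

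Nearly all Hnf4a reads were assigned to transcripts of the downstream start. Hnf4a-205, the transcript annotated at the upstream start, was assigned 1.0 of 34807 Hnf4a reads in the 6 libraries labelled knockout, 1.1 of 25253 in wild type on adenine and 2.0 of 48432 on chow. It was assigned 0 of 81365 reads with antibody and 0 of 45603 with IgG, where 3 reads would have made up 0.0037% and 0.0066%. At this depth no group was thus assigned more than 2.0 reads from the upstream start. Hnf4a-205 is short: on chow its mean of 0.5 reads made 0.068 TPM, against 7809 reads and 59.1 TPM for Hnf4a-202. These shares of reads therefore understate its share of molecules. Reads of upstream RNA in exons shared with other transcripts may have been assigned to those. The downstream reads were divided mainly between Hnf4a-202 and Hnf4a-201, in shares that varied widely between libraries of a group. Hnf4a-202 held 64.4% to 93.5% of the Hnf4a reads with antibody and 94.3% to 99.98% with IgG, so these groups did not overlap. Its share was 1.26% to 62.6% in libraries labelled knockout, 40.5% to 90.9% in wild type on adenine and 51.4% to 70.8% on chow, with overlap between all 3 groups.

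Reads assigned to genes numbered 21057859 to 28213689 per library in the knockout experiment and 43886517 to 50566596 in the antibody experiment, of which mitochondrial genes took 16.9% to 30.1%. Enpp1 RNA checks the labels. It stood at 22.7 CPM (reads per gene scaled to a common library size, with TMM factors) in libraries labelled knockout and 21.98 CPM in wild type on adenine (log2 change 0.05, edgeR adjusted p = 0.465). The transcript was therefore not lower in the libraries labelled knockout, although reads from an unexcised part of a floxed gene can remain. The tissue held kidney markers throughout: 22 proximal tubule genes summed to 7566 to 15821 CPM in libraries labelled knockout, 3516 to 6116 CPM in wild type on adenine and 23713 to 24400 CPM on chow. They summed to 13429 to 19428 CPM with antibody and 4346 to 6941 CPM with IgG. Red blood cell genes (5 genes, globins among them) summed to 204 to 492 CPM in libraries labelled knockout. They summed to 12.5 to 35.7 CPM in wild type on adenine and 1072 to 1295 CPM on chow. The RNA of these genes thus differed between the groups. What this reflects, and its part in the results, were not tested.

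Per transcript length, Hnf4a was the leading factor of the chow kidney. In the adenine kidneys of the knockout experiment its mean was below that of Maf, with overlap in libraries labelled knockout. TPM values (the deposited abundances, scaled per transcript length) were summed over each gene's complete transcripts, those of the GENCODE basic set, and are given as mean ± SD with n = 6 for each adenine group of the knockout experiment and n = 4 for the other groups. In libraries labelled knockout, Maf at 67.8 ± 8.43, Hnf4a at 57.7 ± 9.77, Pax8 at 42.2 ± 5.32 and Esrra at 34.7 ± 4.12 TPM led, each overlapping with the next. Pax2 at 24.7 ± 4.07 TPM overlapped with Esrra, and Tfap2b at 17.3 ± 0.810, Lhx1 at 9.01 ± 0.655 and Esrrg at 6.52 ± 0.649 TPM followed without overlap.

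In wild type on adenine the first place was held by Maf at 63.8 ± 6.88 TPM, then Pax8 at 53.9 ± 2.57 and Hnf4a at 44.2 ± 4.15 TPM, none of which overlapped with the next. Pax2 held the fourth place there at 25.9 ± 3.00 TPM, level with Esrra at 25.4 ± 2.74 and Tfap2b at 20.6 ± 2.95 TPM, whose ranges overlapped in turn. Lhx1 at 6.69 ± 0.905 and Esrrg at 6.45 ± 0.923 TPM came last and overlapped. On chow the order was Hnf4a at 91.5 ± 5.39 TPM, Maf at 52.8 ± 2.99, Esrra at 22.7 ± 4.25, Pax8 at 15.3 ± 0.741, Tfap2b at 12.8 ± 0.987, Esrrg at 6.26 ± 0.261, Lhx1 at 3.498 ± 0.519 and Pax2 at 1.92 ± 0.280 TPM, and no neighbours in this order overlapped. Pax2 thus stood in the middle of the order on adenine and last of the 8 on chow.

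In both arms of the antibody experiment Hnf4a led, at 100.8 ± 15.5 TPM with antibody and 50.3 ± 5.64 TPM with IgG. Pax2 and Lhx1 took the last places there, at 1.58 ± 0.297 and 3.504 ± 0.581 TPM with antibody, and at 2.70 ± 0.593 and 2.62 ± 0.154 TPM with IgG, where their ranges overlapped.

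**Figure D1:**
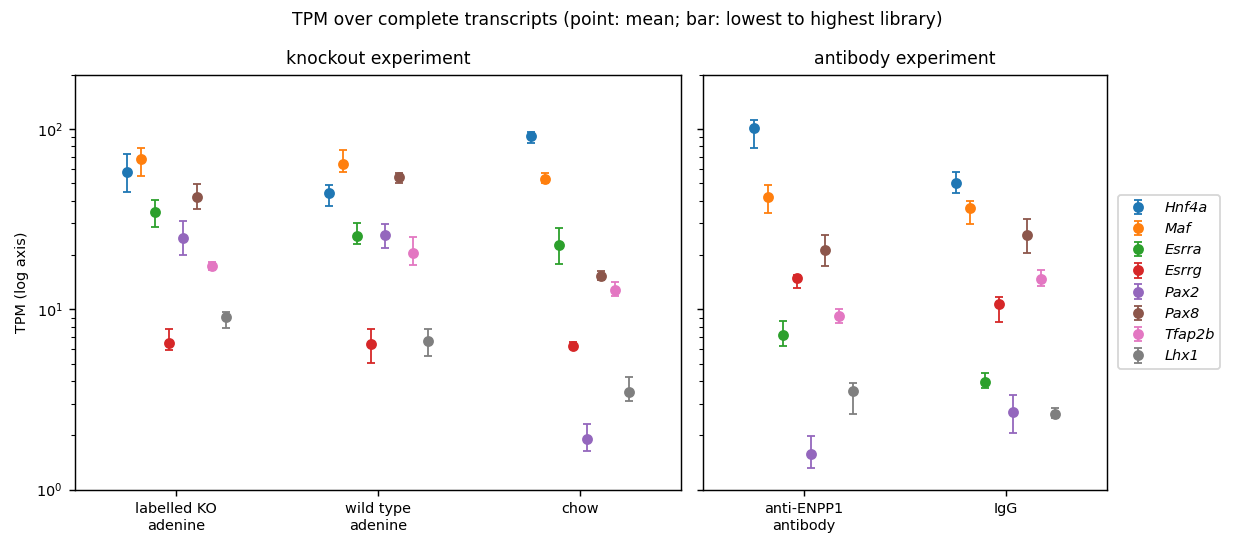
TPM over the complete transcripts of each gene, on a log axis, by group; points are means and bars run from the lowest to the highest library. Hnf4a leads with antibody at 100.8 TPM and on chow at 91.5 TPM, and Pax2 holds the fourth place in wild type on adenine (25.9 TPM) and the last on chow (1.92 TPM).

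Sums over all transcripts changed this order. They placed Pax8 first in wild type on adenine, at 98.4 ± 9.66 TPM, of which Pax8-205, a short transcript with a retained intron and 4.503% of the Pax8 reads, carried 42.7 ± 7.26 TPM (SD, n = 6). They placed Esrra at 75.4 ± 5.98 TPM there, of which 27.5 ± 2.83 TPM lay on Esrra-203, a transcript annotated with an incomplete end (SD, n = 6). Esrra came first in libraries labelled knockout by these sums, at 79.5 TPM, and second on chow, at 58.0 TPM, each overlapping with the next. On chow Esrra-203 held 54.1% of the Esrra reads, against 43.4% on Esrra-201, the transcript kept in the order above. In libraries labelled knockout these shares were 32.2% and 53.0%. TPM values were compared between genes within a group and not between groups: in wild type on adenine against chow, the median gene was 0.87 higher on the log2 scale in TPM and -0.03 in CPM. Maf, Esrra and Esrrg therefore had higher mean TPM (all transcripts) in wild type on adenine than on chow, by 0.27, 0.38 and 0.25 on the log2 scale, while relative to the median gene these differences were -0.60, -0.49 and -0.62. Levels between groups are given below in CPM.

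The first comparison asked what the adenine diet does to these factors in wild-type kidney. Of the 8 factors, 6 changed in wild type on adenine against chow, where 84.9% of the 16965 genes tested did (44.0% higher and 40.9% lower). The proximal and energy factors Hnf4a, Maf, Esrra and Esrrg fell, and the developmental factors Pax2 and Pax8 rose; Tfap2b and Lhx1 did not pass the test. The share of genes called is so high here that a count of 6 in 8 says nothing particular of these factors, and their sizes of change are the result. In bulk tissue, fewer cells of a type and less RNA per cell cannot be told apart.

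Hnf4a stood between 141.5 and 182.9 CPM in wild type on adenine (median 161.7), against 618.0, 614.7, 579.5 and 613.1 CPM on chow. Every adenine library lay far below every chow library. The change was -1.92 ± 0.11 on the log2 scale, to 0.265 of the chow level (edgeR adjusted p = 2.56e-12). Maf stood between 257.1 and 392.2 CPM (median 324.9) in wild type on adenine, against 477.3, 464.3, 560.3 and 490.1 CPM on chow, without overlap (-0.63 ± 0.12, edgeR adjusted p = 5.42e-05; -0.41 under upper-quartile scaling). Macrophage markers moved the opposite way: 14 of 15 were higher and 0 lower. Their sum was 460 to 656 CPM in wild type on adenine and 221 to 242 CPM on chow. No marker was at 0 in every library of either group. Markers of T lymphocytes, another source of Maf RNA, were higher in 8 of 10 and summed to 24.8 to 36.5 CPM in wild type on adenine and 13.2 to 16.6 CPM on chow. The part of these cells in the Maf level was not tested.

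Esrra, which partners with PGC-1alpha in switching on oxidative genes, stood between 94.4 and 113.3 CPM (median 105.3) in wild type on adenine, against 175.7, 167.4, 166.9 and 166.3 CPM on chow. Its change was -0.69 ± 0.057 (edgeR adjusted p = 1.11e-09), and -1.21 with a correction for GC content. Esrrg stood between 27.8 and 32.7 CPM (median 31.2) in wild type on adenine, against 52.9, 55.5, 54.0 and 54.2 CPM on chow. Its change was -0.81 ± 0.070 (edgeR adjusted p = 2.03e-09). For both receptors the adenine and chow libraries did not overlap. Esrrb, the remaining member of the family, fell further, by 1.98 ± 0.13 on the log2 scale, to 10.2 CPM in wild type on adenine, against 40.3 CPM on chow. Ppargc1a, which encodes PGC-1alpha, fell by 0.92 ± 0.10, Ppargc1b by 0.31 ± 0.077 and Perm1, a regulator of the same receptors known from muscle, by 2.57 ± 0.20. Of 22 mitochondrial energy genes, which ESRRA and ESRRG are known to switch on, 22 were lower and 0 higher, with a median change of -2.28, against 0.07 over all genes tested. Acadm, the medium-chain acyl-CoA dehydrogenase of fatty acid oxidation, changed by -2.91 ± 0.087 and Sdhb, a subunit of succinate dehydrogenase, by -3.04 ± 0.093. Their median change was larger than the change of either receptor.

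Pax2 showed the largest change of the 8. It stood between 74.9 and 90.8 CPM (median 79.4) in wild type on adenine, against 9.35, 8.02, 13.0 and 10.4 CPM on chow, a change of 2.98 ± 0.13 or 7.89-fold (edgeR adjusted p = 6.21e-14). With a correction for GC content the change of Pax2 was smaller, at 2.55, and still the largest of the 8. Pax8 stood between 102.2 and 132.2 CPM (median 124.1) in wild type on adenine, against 57.2, 58.3, 65.9 and 56.3 CPM on chow, a change of 1.007 ± 0.083 or 2.01-fold (edgeR adjusted p = 1.15e-09). In both, all 6 adenine libraries lay above all 4 chow libraries. Lhx1, which acts beside these factors in the forming nephron, did not pass the test. It stood between 16.5 and 21.3 CPM (median 18.3) in wild type on adenine, against 17.9, 17.6, 23.99 and 19.3 CPM on chow, with overlap (log2 change -0.09, 95% interval -0.32 to 0.15, edgeR adjusted p = 0.471, and 0.14 under upper-quartile scaling). Tfap2b stood between 80.8 and 96.9 CPM (median 89.3), against 86.8, 82.0, 84.2 and 86.02 CPM on chow, also with overlap (0.07, 95% interval -0.05 to 0.19, edgeR adjusted p = 0.260). Under upper-quartile scaling Tfap2b passed the test, at 0.30; that scaling moved the median of all genes to 0.30.

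**Figure D2:**
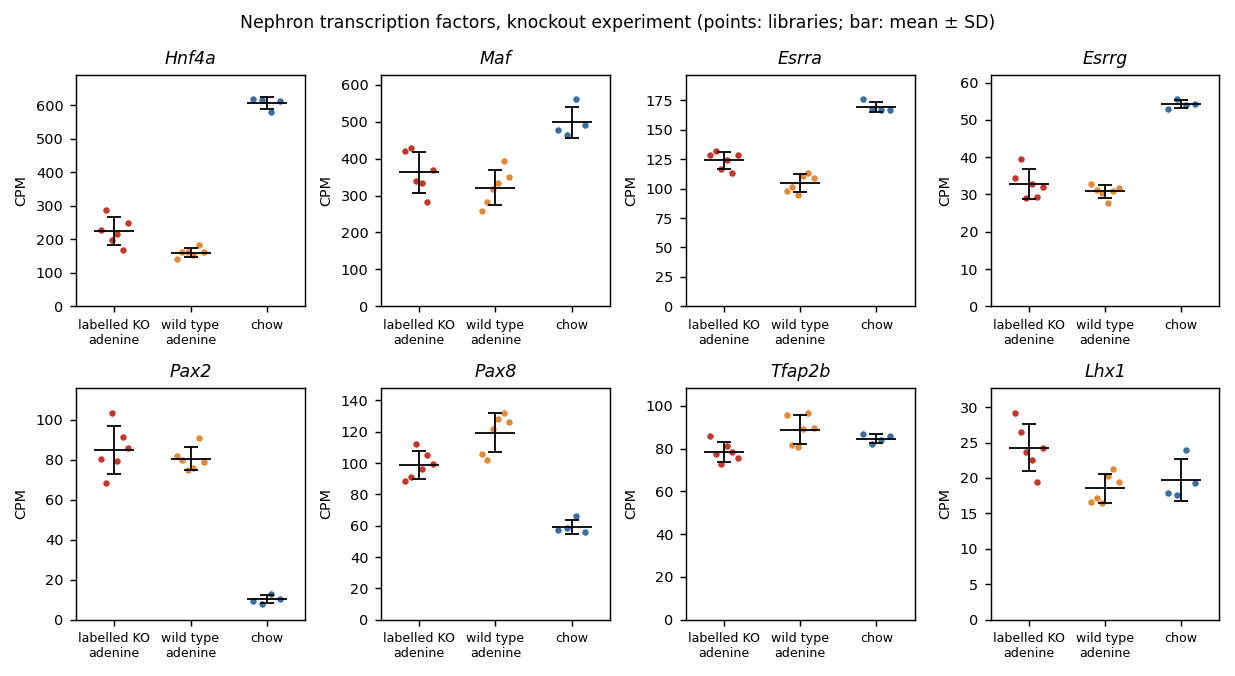
CPM of the 8 factors in each library of the knockout experiment, with the mean and SD of each group (n = 6, 6 and 4); each axis starts at 0 and has its own scale. Hnf4a, Maf, Esrra and Esrrg lie lower in both adenine groups than on chow, Pax2 and Pax8 higher, and Tfap2b and Lhx1 overlap between wild type on adenine and chow.

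Among the other factors of the proximal tubule, 6 of 10 fell and 1 rose, with a median of -0.51. Klf15, a zinc finger factor, changed by -2.49 ± 0.13, Rxra, the partner of many nuclear receptors, by -1.67 ± 0.087 and Nr1h4, the bile acid receptor FXR, by -0.88 ± 0.089. Hnf4g, the paralog of Hnf4a, stood at 3.95 CPM in wild type on adenine and 4.92 CPM on chow and did not pass (edgeR adjusted p = 0.0562). The 22 proximal tubule genes of transport and metabolism, many of them known HNF4A targets, were all lower in this comparison, with a median of -2.98, a larger change than that of Hnf4a itself. Markers of cells outside the tubule were lower as well: endothelial ones in 10 of 10 (median -1.60), summing to 194 to 282 CPM in wild type on adenine and 644 to 714 CPM on chow, and podocyte ones in 8 of 10 (median -1.45), with 1 higher, summing to 192 to 258 CPM in wild type on adenine and 679 to 706 CPM on chow. Genes of the injured tubule were higher in 18 of 20 (median 2.44), and the part of any of these cells in the values above was not tested.

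Of 18 factors of the loop of Henle, the distal tubule and the collecting duct, 13 rose and 5 fell, with a median of 0.38; the difference between this list and that of the proximal factors was not tested. Hoxd3, a homeobox gene, changed by 2.89 ± 0.11, Tfap2a, the paralog of Tfap2b, by 1.84 ± 0.10 and Grhl2, a regulator of epithelial junctions, by 0.91 ± 0.086. Emx1 fell by 1.43 ± 0.11 on the log2 scale and Irx1 by 0.96 ± 0.10. The functional genes of the same segments were mostly lower. Of 17 loop and distal genes 13 were lower and 3 higher (median -1.18), and of 13 collecting duct genes 9 were lower and 1 higher (median -1.74).

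Other genes of the forming nephron were split between both directions. Of 20 progenitor and early nephron genes, 17 passed the filter, 6 were higher and 7 lower (median -0.33). Under upper-quartile scaling, with 60.3% of all calls higher against 51.8% under TMM, and a median of all genes of 0.30 against 0.07, the list medians were -0.11 for these genes, -0.28 for the proximal factors and 0.60 for the loop, distal and collecting duct factors. Wnt4, the signal of epithelial conversion, changed by 1.68 ± 0.15 and Wnt9b, its upstream signal from the ureteric bud, by 1.31 ± 0.32. Cited1, a marker of the cap mesenchyme, changed by -3.81 ± 0.27 and Gfra1, a receptor subunit for GDNF, by -3.83 ± 0.21. Six2, the defining factor of nephron progenitors, stood at 0.389 CPM in wild type on adenine and 0.203 CPM on chow and did not pass (edgeR adjusted p = 0.0653). Of 13 coactivators and partners of the 8 factors, 6 were higher and 7 lower (median -0.11). Ldb1, a LIM-domain binding protein that works with LHX1, changed by 1.06 ± 0.064, whereas Ldb2, the other LIM-domain binding gene, changed by -0.97 ± 0.10. Kctd15, an inhibitor of AP-2 factors, changed by 1.23 ± 0.069 and Cited2, a coactivator of AP-2 factors, by -1.005 ± 0.071.

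Libraries labelled knockout were set against wild type, both on adenine, which by the labels asks how loss of ENPP1 bears on the injured kidney; Enpp1 RNA did not differ beyond its spread between these groups. Of the 8 factors, 5 changed, where 46.4% of the 16965 genes tested did (25.1% higher and 21.3% lower). Hnf4a, Esrra and Lhx1 rose, Pax8 and Tfap2b fell, and Maf, Esrrg and Pax2 did not pass. The changes were all under 0.5 on the log2 scale. Of all genes called, 54.1% were higher, against 40.8% under upper-quartile scaling, and the median of all genes was -0.02 and -0.08 under these scalings; relative to that median, no change of the 8 factors in any comparison moved by more than 0.0048 between them.

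Hnf4a had 226.5, 289.1, 199.6, 217.2, 168.3 and 248.3 CPM in libraries labelled knockout, against 141.5, 161.7, 161.6, 153.8, 182.9 and 162.6 CPM in wild type. All but 1 of the libraries labelled knockout lay above all wild-type ones, and replicate 5, at 168.3 CPM, lay within their range. The change was 0.48 ± 0.095 or 1.40-fold (edgeR adjusted p = 0.000444). Esrra stood between 113.5 and 131.7 CPM (median 126.4) in libraries labelled knockout, against 94.4 to 113.3 CPM (median 105.3) in wild type. The groups did not overlap, though the nearest libraries were 113.5 and 113.3 CPM (0.25 ± 0.052, edgeR adjusted p = 0.000820). Esrrg stood between 28.9 and 39.6 CPM (median 32.3), against 27.8 to 32.7 CPM (median 31.2) in wild type, with overlap (0.09, 95% interval -0.04 to 0.22, edgeR adjusted p = 0.267). Maf stood between 282.0 and 429.0 CPM (median 355.5), against 257.1 to 392.2 CPM (median 324.9) in wild type, with overlap (0.17, 95% interval -0.05 to 0.39, edgeR adjusted p = 0.188). The sum of macrophage markers also overlapped, at 512 to 652 CPM in libraries labelled knockout and 460 to 656 CPM in wild type. Replicate 5 of the libraries labelled knockout was the lowest of its group in Hnf4a, Maf, Esrra, Lhx1 and the sum of proximal tubule genes (7566 CPM) and the highest in macrophage markers (652 CPM). Wild-type replicate 5 was the highest of its group in all of the 8 factors but Esrrg and in the proximal tubule sum (6116 CPM), and the lowest in macrophage markers (460 CPM). The change of Hnf4a was 0.56 without the first of these libraries and 0.52 without the second, called in both cases.

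Lhx1 had 29.2, 26.5, 23.7, 22.5, 19.5 and 24.3 CPM in libraries labelled knockout, against 16.7, 17.2, 16.5, 20.3, 21.3 and 19.5 CPM in wild type. All but replicate 5 lay above every wild-type library (0.39 ± 0.096, edgeR adjusted p = 0.00287; 0.60 with the transcript-length offset). Pax8 stood between 88.4 and 112.0 CPM (median 97.7), against 102.2 to 132.2 CPM (median 124.1) in wild type, with overlap (-0.28 ± 0.071, edgeR adjusted p = 0.00389). Tfap2b stood between 72.7 and 86.01 CPM (median 77.9), against 80.8 to 96.9 CPM (median 89.3) in wild type, with overlap (-0.18 ± 0.051, edgeR adjusted p = 0.00811). Pax2 stood between 68.3 and 103.5 CPM (median 82.9), against 74.9 to 90.8 CPM (median 79.4) in wild type. Its change was 0.08, with a 95% interval of -0.12 to 0.27 (edgeR adjusted p = 0.521).

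The proximal tubule factors outside the 8 rose in 3 of 10 and fell in none, with a median of 0.20, against -0.02 over all genes tested. Klf15 (1.14 ± 0.12) and Rxra (0.63 ± 0.080) were among those that rose. All 22 proximal tubule functional genes were higher, with a median of 1.53, and all 22 mitochondrial genes, with a median of 0.72. Ppargc1a, at 64.3 CPM in libraries labelled knockout and 62.4 CPM in wild type, did not pass (edgeR adjusted p = 0.717), whereas Perm1 rose by 1.58 ± 0.19. Of the 18 loop, distal and collecting duct factors, 6 fell and 2 rose, Hoxd3 by -0.46 ± 0.077 and Tfap2a by -0.41 ± 0.077 among the first, Emx1 by 0.46 ± 0.10 among the second. The functional genes of these segments were mostly higher. Of 17 loop and distal genes 12 were higher and 1 lower (median 0.53), and of 13 collecting duct genes 10 were higher and 0 lower (median 0.33). Of 20 genes of the injured tubule, 12 were lower and 0 higher. Podocyte markers moved as the functional genes of the tubule did, with 8 of 10 higher and 1 lower. So did endothelial ones, with 9 of 10 higher and 0 lower. The part of these cells in the values above was not tested.

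**Figure D3:**
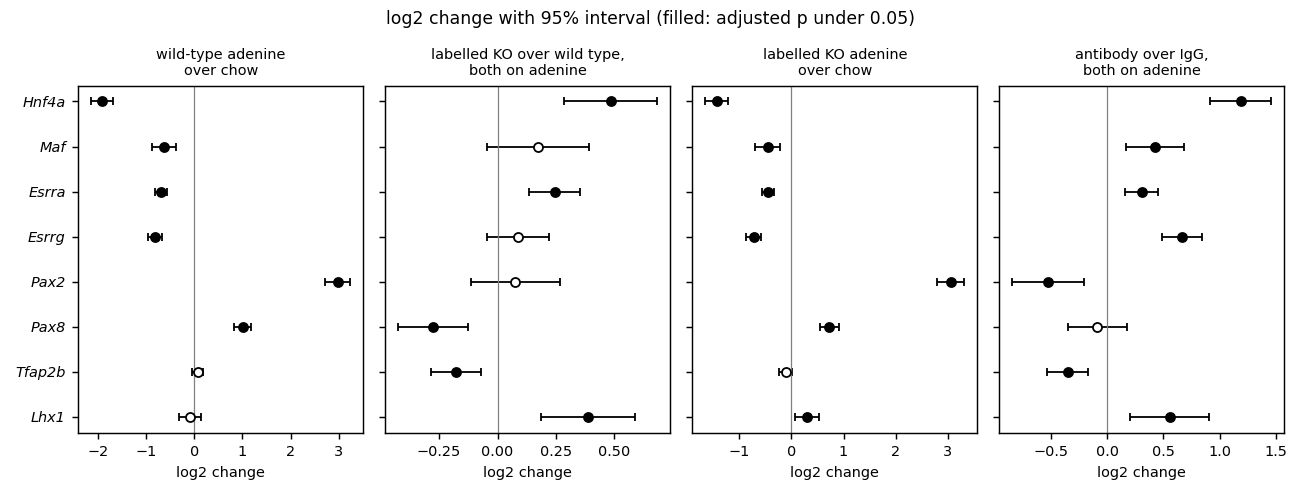
Log2 change of each factor with its 95% interval in the 4 comparisons; filled points passed an adjusted p of 0.05, and each panel has its own scale. Hnf4a is lower in both adenine groups against chow, and higher in libraries labelled knockout against wild type (0.48) and with antibody against IgG (1.19).

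Libraries labelled knockout were also set against the same 4 chow libraries that served wild type. Of the 8 factors, 7 changed, where 80.1% of the genes tested did (40.2% higher and 39.9% lower). Hnf4a changed by -1.43 ± 0.10 in libraries labelled knockout against chow, beside -1.92 ± 0.11 in wild type against chow. The corresponding values were -0.46 ± 0.12 beside -0.63 ± 0.12 for Maf, -0.45 ± 0.057 beside -0.69 ± 0.057 for Esrra, and -0.72 ± 0.070 beside -0.81 ± 0.070 for Esrrg. Pax2 changed by 3.06 ± 0.13 beside 2.98 ± 0.13, and Pax8 by 0.73 ± 0.083 beside 1.007 ± 0.083. None of these overlapped with chow. The share of all genes tested that did not overlap was not counted, here or in the other comparisons. Lhx1 rose by 0.30 ± 0.11 with overlap (edgeR adjusted p = 0.0170), beside -0.09 ± 0.11. Upper-quartile scaling gave -0.30 for Maf, -0.29 for Esrra and 0.46 for Lhx1, and the transcript-length offset 0.80 for Lhx1 and 1.13 for Pax8. The correction for GC content gave -0.98 for Esrra and 2.60 for Pax2. All of these were called. Tfap2b, at -0.11 ± 0.058, did not pass (edgeR adjusted p = 0.0909, and 0.05 under upper-quartile scaling). The differences between these pairs are those tested directly between libraries labelled knockout and wild type.

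The antibody experiment asked what an antibody against human ENPP1 does under the diet. Of the 8 factors, 7 changed with antibody against IgG, where 55.3% of the 16410 genes tested did (27.2% higher and 28.0% lower; 49.3% of the calls were higher, against 31.1% under upper-quartile scaling). Hnf4a, Maf, Esrra, Esrrg and Lhx1 rose, Pax2 and Tfap2b fell, and Pax8 did not pass. Enpp1 RNA was spread over 2.62 to 17.4 CPM with antibody, against 7.22 to 8.86 CPM with IgG (edgeR adjusted p = 0.997).

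Hnf4a had 387.2, 494.1, 526.9 and 566.2 CPM with antibody, against 232.7, 183.5, 238.2 and 211.3 CPM with IgG. All antibody libraries lay above all IgG libraries, and the change was 1.19 ± 0.12 or 2.28-fold (edgeR adjusted p = 6.40e-05). Maf had 281.9, 295.1, 223.9 and 355.5 CPM with antibody, against 216.3, 207.0, 228.6 and 209.6 CPM with IgG; antibody replicate 3 lay within the IgG range (0.42 ± 0.12, edgeR adjusted p = 0.0111). Macrophage markers went the opposite way to Maf: 14 of 15 were lower. Their sum was 212 to 306 CPM with antibody and 463 to 901 CPM with IgG. No marker was at 0 in every library of either arm.

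Esrrg had 80.4, 90.8, 90.7 and 98.03 CPM with antibody, against 56.3, 50.7, 59.6 and 60.5 CPM with IgG. Esrra had 30.9, 31.6, 27.0 and 29.7 CPM with antibody, against 24.04, 23.2, 24.9 and 24.2 CPM with IgG. Neither overlapped between the groups; the changes were 0.66 ± 0.080 for Esrrg (edgeR adjusted p = 0.000101) and 0.31 ± 0.066 for Esrra (edgeR adjusted p = 0.00273; 0.57 with a correction for GC content). Esrrb rose by 0.67 ± 0.20, Ppargc1a by 0.35 ± 0.11 and Perm1 by 2.14 ± 0.44, the last on a base of 0.232 CPM with IgG, whereas Ppargc1b fell by 0.61 ± 0.15. Of the 22 mitochondrial genes, 17 were higher and 0 lower, with a median of 0.64, against -0.04 over all genes tested.

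Lhx1 had 10.7, 14.9, 14.8 and 16.5 CPM with antibody, against 12.6, 8.14, 8.74 and 9.30 CPM with IgG, with overlap through antibody replicate 1 and IgG replicate 1 (0.56 ± 0.16, edgeR adjusted p = 0.0123). Pax2 had 8.23, 5.75, 6.33 and 5.68 CPM with antibody, against 8.90, 8.93, 8.25 and 11.4 CPM with IgG. The closest of these libraries were 8.23 and 8.25 CPM, and the change was -0.53 ± 0.15 (edgeR adjusted p = 0.0102). Tfap2b had 49.0, 51.5, 58.2 and 57.5 CPM with antibody, against 77.7, 62.0, 67.5 and 69.5 CPM with IgG, without overlap (-0.36 ± 0.084, edgeR adjusted p = 0.00434). Pax8 had 77.1, 62.5, 59.8 and 53.4 CPM with antibody, against 64.4, 64.8, 59.0 and 80.8 CPM with IgG, with overlap (-0.09, 95% interval -0.36 to 0.18, edgeR adjusted p = 0.552). Antibody replicate 1 was the lowest of its group in Hnf4a, Esrrg, Lhx1 and Tfap2b and the highest in Pax2 and Pax8; it was also the highest in the sum of injured tubule genes, at 35695 CPM, against 21958 to 29771 CPM in the other 3.

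**Figure D4:**
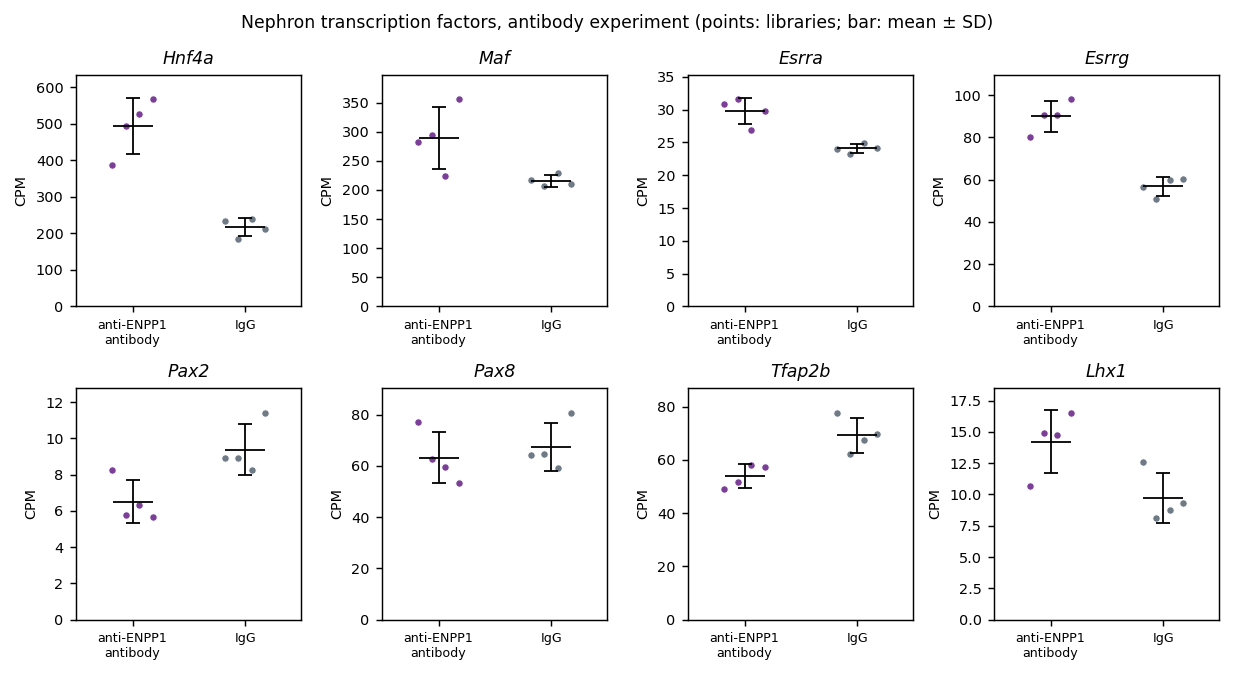
CPM of the 8 factors in each library of the antibody experiment, with the mean and SD of each group (n = 4 each); each axis starts at 0 and has its own scale. Hnf4a, Esrra and Esrrg lie higher with antibody than with IgG without overlap, and Pax2 and Tfap2b lower without overlap. The nearest Pax2 libraries lie at 8.23 CPM (antibody) and 8.25 CPM (IgG). The share of all genes tested that did not overlap was not counted.

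Some of these calls depended on the processing. Maf and Esrra did not pass under upper-quartile scaling, at 0.27 and 0.15 (edgeR adjusted p = 0.0679 and 0.0672), nor did Pax2 with a correction for GC content, at -0.31 (edgeR adjusted p = 0.0770). Of the other proximal tubule factors, 8 of 10 rose with antibody and 1 fell, with a median of 0.77. Klf15 changed by 2.03 ± 0.18, Ppara, the fatty acid receptor, by 1.48 ± 0.15, Nr1h4 by 0.92 ± 0.18, Rxra by 0.83 ± 0.081 and Hnf4g by 0.57 ± 0.10. All 22 proximal tubule functional genes were higher, with a median of 1.74. Hpd, an enzyme of tyrosine breakdown, changed by 3.94 ± 0.43 and Slc22a8, an organic anion transporter, by 2.56 ± 0.37.

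Of the 18 loop, distal and collecting duct factors, 9 fell with antibody and 3 rose, with a median of -0.38. Hoxd3 changed by -1.06 ± 0.13, Irx2 by -0.66 ± 0.16, Gata3 by -0.61 ± 0.084 and Tfap2a by -0.48 ± 0.14; the risers were Emx1 (0.62 ± 0.14), Tfcp2l1 (0.56 ± 0.082) and Foxi1 (0.31 ± 0.087), a regulator of intercalated cells. The functional genes of the same segments were mostly higher with antibody. Of 17 loop and distal genes 13 were higher and 2 lower (median 0.76), and of 13 collecting duct genes 8 were higher and 1 lower (median 0.37). Progenitor and early nephron genes were higher in 2 and lower in 5 of the 14 tested, with Wnt4 at -1.55 ± 0.12, Hoxd11 at -0.91 ± 0.27 and Gfra1 at 1.31 ± 0.25. Fibroblast markers were lower in 9 of 10, their sum being 150 to 234 CPM with antibody and 385 to 701 CPM with IgG. Of 10 podocyte markers 3 were higher and 2 lower (median 0.16), and of 10 endothelial ones 0 were higher and 3 lower (median -0.23). The part of any of these cells in the values above was not tested.

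**Figure D5:**
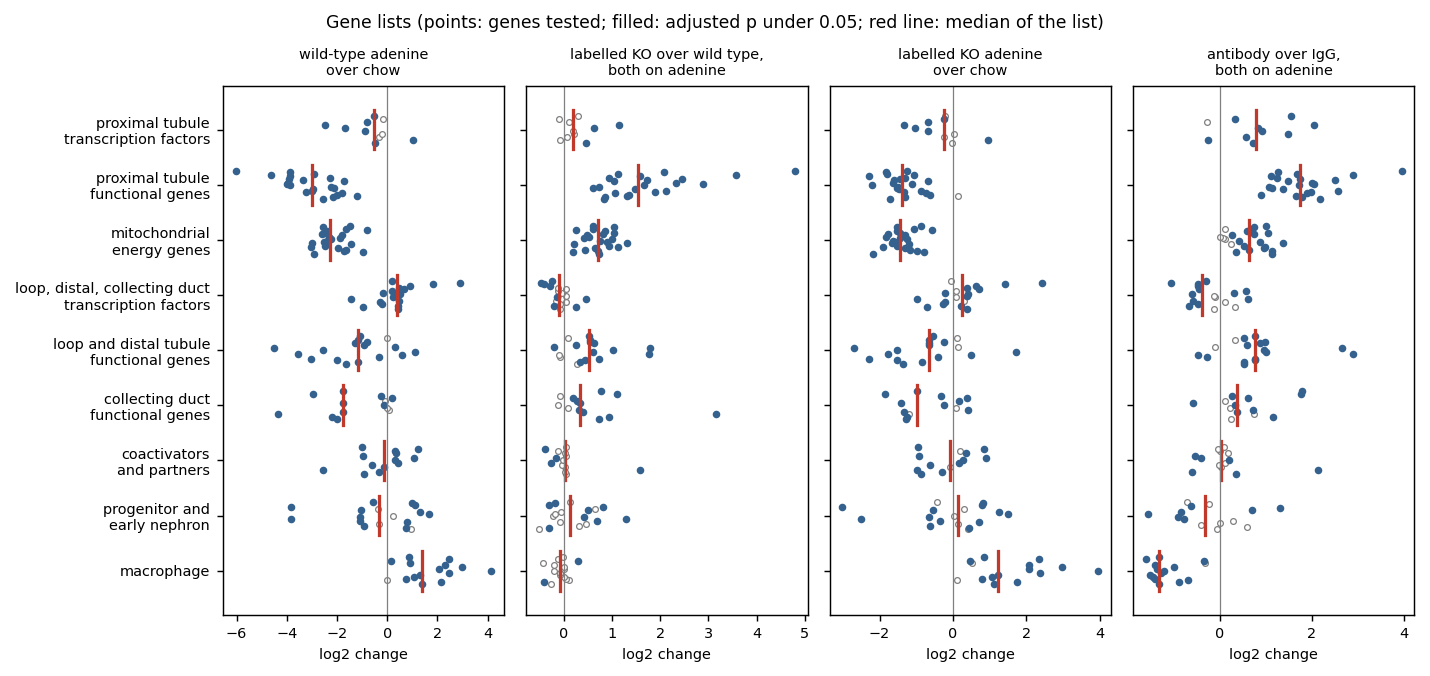
Log2 change of every gene tested in 9 of the gene lists, in the 4 comparisons; filled points passed an adjusted p of 0.05, red lines are list medians, and each panel has its own scale. Proximal tubule functional genes lie below 0 against chow (medians -2.98 in wild type and -1.40 in libraries labelled knockout, where 1 gene that did not pass lies above 0) and above 0 in libraries labelled knockout against wild type (1.53) and with antibody against IgG (1.74).

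Part of the reads of some factors lay on transcripts that make no protein (retained introns and processed transcripts), in shares that differed between factors and groups. For Esrra it was 14.8 ± 1.22% in libraries labelled knockout and 16.3 ± 3.01% in wild type on adenine (SD, n = 6 each), against 2.54 ± 0.439% on chow (SD, n = 4), without overlap of either with chow. It was 15.7 ± 1.76% with antibody and 16.4 ± 2.40% with IgG (SD, n = 4 each), with overlap. For Pax8 the share was 6.24% in libraries labelled knockout and 6.63% in wild type on adenine, against 2.80% on chow. Esrrg did not follow them, at 4.29% (3.62% to 4.64%) in libraries labelled knockout and 5.71% (4.16% to 6.72%) in wild type on adenine, against 5.44% (4.80% to 5.85%) on chow, so the first lay below chow and the second overlapped with it. For Lhx1 the share was 0.618% in libraries labelled knockout and 1.59% in wild type on adenine, against 0.762% on chow, with overlap. For Tfap2b, on few reads, it was 0.543% in libraries labelled knockout and 0.763% in wild type on adenine. On chow the Tfap2b share was 0.162%, without overlap with either. Such transcripts held 10.5% of the reads of all protein-coding genes in libraries labelled knockout and 12.3% in wild type on adenine, against 6.19% on chow, and 5.11% with antibody, against 7.16% with IgG. Over all genes the share was thus higher on adenine in the knockout experiment, while in the antibody experiment the share over all genes was lower with antibody and that of Esrra overlapped between the arms. These are divisions made by the quantification between overlapping transcripts, and no test was made of them.

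Within Esrra, the full coding transcript Esrra-201 held 53.0 ± 4.68% of the reads in libraries labelled knockout, 43.1 ± 3.08% in wild type on adenine and 43.4 ± 5.95% on chow. It held 57.6 ± 4.13% with antibody and 34.7 ± 3.69% with IgG, without overlap. Tfap2b-202, the transcript that starts at the RefSeq promoter, held 6.57 ± 0.802% of Tfap2b reads in libraries labelled knockout and 5.76 ± 1.17% in wild type on adenine, against 15.8 ± 2.27% on chow, which lay above both. It held 5.73 ± 0.823% with antibody and 10.8 ± 2.80% with IgG, again without overlap, so that this minor start was lower in the group with less Tfap2b in the antibody experiment. Esrrg reads from the far upstream start made up 10.9 ± 1.87% in libraries labelled knockout, 12.8 ± 4.16% in wild type on adenine and 8.54 ± 1.49% on chow. They made up 6.16 ± 0.776% with antibody and 4.03 ± 1.40% with IgG. Maf shares 5.34% of its exon bases with the antisense gene Gm15655, Pax8 6.06% with Gm13415 on the opposite strand, and Esrra 1.66% with Trmt112 on the opposite strand and 2.07% with Mir6990. The sources used here do not say whether the quantification used strand, so these reads may be shared.

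The genes whose profiles were most like each factor were sought among 10760 protein-coding genes over all 24 libraries, each gene centred within its experiment, by the root mean square (RMS) difference of log2 CPM. Hnf4a was closest to Mfsd4b1 (RMS 0.096) and Ahcyl2 (0.102), against its own SD of 0.726. Pax2 was closest to Kmt2d, a histone methyltransferase (0.168), and Zfp579 (0.181), against its own SD of 1.10. Esrra was closest to Atg4d (0.079), and Esrrg to Acbd5 (0.072) and Rnft1 (0.075). Maf was closest to Cobll1 (0.122) and Phtf2 (0.129), Pax8 to Hivep2 (0.107) and Akap8 (0.108), and Tfap2b to Map9 (0.084) and Arfgef3 (0.101). Lhx1 was closest to Rufy3 (0.128) and Scnn1a (0.132), a subunit of the epithelial sodium channel. The libraries share their diets and treatments, so likeness here describes these profiles and no more.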

How the data were processed

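Strand-specific libraries were made from 400 ng of total kidney RNA with a TruSeq kit, per the labels' protocols. The submitters' processing notes name Salmon, FastQC, DESeq, DESeq2 and the build GRCm39; for versions and options, the sources used here give none. In each file the authors deposited, per the file headers, estimated counts per transcript (expected counts, not normalized), TPM values scaled per length by Salmon, and effective lengths, which entered an alternative as an offset.

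Of 116755 transcripts, 115685 (99.08%) matched GENCODE M21 (GRCm38) by identifier; the rest held 0.439% to 0.527% of a library's reads and were left out. Counts were summed per gene and rounded. Genes were tested, two-sided, with edgeR 4.0.16 in R 4.3.3 (quasi-likelihood F test, filterByExpr, TMM scaling, Benjamini-Hochberg adjustment over all genes tested, threshold 0.05), in a fit of the 16 libraries of the knockout experiment and a fit of the 8 of the antibody experiment, without covariates. Values after ± beside a log2 change are standard errors; SDs are named.

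The 8 factors, the gene lists and the motifs were chosen with earlier results of these data known. Named beside the 8 were Enpp1, up to 4 called genes per list and comparison by size of change, any gene of the lists of transcription factors, paralogs and coactivators, and the 2 genes most like each factor (mean of at least 5 CPM in both experiments). Some genes that this rule would name are not reported here. Six2, Pax8-205, Esrra-201, Esrra-203, Tfap2b-202 and the sum over complete transcripts were chosen after seeing the values. No 2 libraries of a group agreed within sampling noise (chi-square per degree of freedom at least 4.96). Alternatives were upper-quartile and DESeq2-type (RLE) scaling, no filter or another filter, DESeq2 1.42.0, limma 3.58.1 voom, a transcript-length offset, the replicate number as a block, only the 2 groups compared, leaving out each library and, added after seeing the data, a GC offset. The fits were also run on simulated data in which only a small part of the genes changed, equally in both directions. That setting differs from the comparisons here, where a large share of all genes was called, so it does not test the scaling.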

Additional observations from a re-analysis of the deposited data

Results flagged for a closer look

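In 2 of 40 sets of a factor and a group, a library lay apart from the others of its group by Dixon's test, which chance alone flags in about 1 of 20. Hnf4a in chow replicate 3 was the lowest of its group, at 579.5 CPM, against 613.1 to 618.0 CPM in the other 3. Esrra in chow replicate 1 was the highest, at 175.7 CPM, against 166.3 to 167.4 CPM in the other 3. Both lay far from the adenine groups, and leaving out either library left the direction and the call of these factors against chow as they were.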

How the results depend on the processing

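Of 608 values of the 8 factors under alternatives, 592 kept direction and call. Those that changed sign had not passed in the first place: in wild type on adenine against chow, Lhx1 at 0.14 with upper-quartile scaling and 0.20 with the transcript-length offset, and Tfap2b at -0.12 with that offset; Esrrg in labelled knockout against wild type at -0.16 with it; Tfap2b in labelled knockout against chow at 0.053 with upper-quartile scaling; and Pax8 with antibody at 0.0395 with the length offset. Leaving out single libraries gave -0.13 to 0.046 for that Lhx1 value (highest without chow replicate 3) and -0.20 to 0.011 for that Pax8 value (highest without IgG replicate 4). Calls were lost for Maf (0.27) and Esrra (0.15) with antibody under upper-quartile scaling and for Pax2 (-0.31) with the GC offset, and gained for Tfap2b against chow: in wild type at 0.30 (upper quartile) and 0.15 (GC offset), in labelled knockout at -0.30 (length offset), -0.12 (replicate block) and -0.14 (without labelled knockout replicate 1). The cause was not tested. Replicate numbers did not pair the libraries (correlations of same-numbered deviations -0.144 to 0.069); with the replicate block 6, 5, 8 and 7 factors were called in the 4 comparisons, in the order of the text, against 6, 5, 7 and 7 without it, and 14108, 7523, 13251 and 8278 genes. Pax2 at 153 to 262 reads on chow is the thinnest value.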

Other observations

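The levels of Pax2 and Esrra in the 2 experiments could not be set side by side. Between wild type on adenine in the knockout experiment and IgG on adenine in the antibody experiment, Pax2 differed by 3.09 and Esrra by 2.11 on the log2 scale, and Esrrg by -0.88. The median of genes over these groups ran from -0.35 in the lowest of 10 equal classes of genes by transcript GC content to 1.512 in the highest, in which Pax2 (59.9% GC) and Esrra (61.2% GC) lie, whereas Esrrg (42.9% GC) lies in the second. Experiment, treatment and library preparation cannot be told apart in this difference. Within the knockout experiment, the medians of these classes in wild type on adenine against chow ran only from -0.28 to 0.37.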
